A study of Mus musculus with 100 samples.

Results

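The lysyl oxidase family consists of 5 mouse genes, Lox and the lysyl oxidase-like genes Loxl1, Loxl2, Loxl3 and Loxl4, and all 5 were found among the 25965 genes of the deposited expression table. The genes were taken by name, as the family of Lox. Lox was singled out because its RNA was far higher in mouse embryonic fibroblasts (MEFs) than in pluripotent cells. A single library of the line M KSR5, in which Lox was at 1.13% of the MEF mean, was set apart in that choice. Values in MEFs against pluripotent cells are therefore given for these 5 genes as a description with no test, whereas differences among the pluripotent groups and parental allele shares were tested. That M KSR5 library entered the choice of Lox, so that tests of Lox which include it rest in part on a value that chose the gene, and the values without it are given beside them.

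Lysyl oxidases are secreted, copper-dependent amine oxidases. They convert lysine side chains of collagens and elastin into aldehydes, which then react to form the covalent cross-links that make collagen fibrils and elastic fibres insoluble. Lox and Loxl1 are made as proenzymes whose propeptide is removed outside the cell by the bone morphogenetic protein 1 (Bmp1) and tolloid proteases, whereas Loxl2, Loxl3 and Loxl4 carry scavenger receptor cysteine-rich domains at their amino-terminal end. Fibroblasts are the textbook source of these enzymes.

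RNA was measured in 18 libraries, 3 replicates in each of 6 groups. Female MEFs came from F1 embryos of an i4F-BL6 mother and a Mus musculus castaneus (CAST) father. The mother carries a doxycycline-inducible cassette of reprogramming factors on the C57BL/6J (BL6) background. The cassette is shared by the MEFs and by every induced pluripotent stem cell (iPSC) line. Male lines were made from male MEFs, whose RNA was not measured, so that the female MEFs are not their source. The iPSC lines F KSR2 and F KSR4 (female) and M KSR3 and M KSR5 (male) were obtained by inducing the cassette with doxycycline in medium with Knockout Serum Replacement (KSR), and were kept in that medium with LIF and without doxycycline. TX 2i ESCs are the female BL6 x CAST embryonic stem cell line TX1072, grown with serum, LIF and the inhibitors of the 2i formulation, which block MEK and GSK3. Each iPSC line is 1 picked colony, colonies were first plated on feeder cells, and female lines descend from a single female embryo and male lines from a single male embryo, so that sex and embryo cannot be told apart. The labels do not tie replicates to separate cultures, and p-values measure only the spread between these samples.

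The libraries held 13183036 to 17921280 reads on genes, so that 1 read lay between -4.29 and -3.89 on the log2 RPM scale (RPM, reads scaled to library size). All levels below are on this scale unless a value per kilobase of exon (RPKM) is named. The 15 fibroblast markers examined summed to 6728 to 7930 RPM in MEFs, 25.2 to 118 RPM in KSR-iPSCs and 32.0 to 50.2 RPM in TX 2i ESCs. The 10 pluripotency markers summed to 70.9 to 119 RPM in MEFs, 4105 to 6454 RPM in KSR-iPSCs and 6542 to 8530 RPM in TX 2i ESCs, so the markers followed the labels. M KSR5 replicate 3 had the highest fibroblast marker sum of the pluripotent libraries, and results that rest on it are given with and without it.

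Lox, the founding member and the main cross-linking enzyme of fibrillar collagen and elastin, was the most abundant lysyl oxidase RNA of MEFs per kilobase of exon. The 3 MEF libraries held 57248, 108048 and 90842 Lox reads (levels of 11.77, 12.43 and 12.22). In the 12 KSR-iPSC libraries the level ranged from -4.22, which was 1 read, through a median of -0.85 to 5.70, and TX 2i ESCs held 0, 1 and 0 reads. Thus every MEF library lay far above every pluripotent library, and no pluripotent library outside M KSR5 was above 2.32. The difference between the mean of the 5 pluripotent groups and MEFs was -13.33, or -13.82 without M KSR5 replicate 3. All MEF libraries lay above all pluripotent libraries for each of the 5 members, which was also true of 23.9% of the 14632 genes tested, a share that cannot be read against members chosen on this contrast. In these cultures fewer cells with a transcript and less RNA per cell cannot be told apart.

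Lox levels within the iPSC lines were widely spread. F KSR2 held 9, 1 and 82 Lox reads, F KSR4 held 9, 19 and 42, M KSR3 held 1, 13 and 11, and M KSR5 held 7, 5 and 898. The mean level of F KSR2 was -0.96 ± 3.27 (SD, n = 3) and that of F KSR4 0.19 ± 1.26, against -1.80 ± 2.00 for M KSR3 and 0.83 ± 4.22 for M KSR5. Without replicate 3 the M KSR5 mean was -1.60 ± 0.33 (n = 2), which placed it beside M KSR3 rather than above all other lines. The ranges of the 4 lines overlapped with that library, whereas without it both M KSR5 libraries (-1.84 and -1.37) lay below those of F KSR4, the lowest of which was at -1.01.

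Loxl1, whose product is associated with elastin and is needed for elastic fibre upkeep, held 10469, 9787 and 9975 reads in MEFs (9.11 ± 0.19). Its level was 1.15 to 3.25 in KSR-iPSCs (median 1.92) and 1.89, 1.98 and 1.03 in TX 2i ESCs. It was the most even member among pluripotent cells, with between 32 and 164 reads in each of the 15 libraries. The group means ran from 1.63 ± 0.37 (F KSR2) and 1.63 ± 0.53 (TX 2i ESCs) through 1.75 ± 0.98 (F KSR4) and 2.03 ± 0.28 (M KSR3) to 2.48 ± 0.73 (M KSR5), and no neighbours in this order differed by more than the larger of their SDs.

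Loxl2, whose product cross-links basement membrane collagen IV and has been linked to the transcription factor Snail, held 5328, 5960 and 5767 reads in MEFs (8.28 ± 0.06). The KSR-iPSC libraries ranged from 0.91 to 3.82 with a median of 2.91, and TX 2i ESCs were at 0.24, 1.73 and -0.51. All KSR-iPSC libraries but F KSR4 replicate 1 and M KSR3 replicate 2 lay above every TX 2i ESC library. In order, the group means were 3.38 ± 0.42 (M KSR5), 2.87 ± 0.70 (F KSR2), 2.28 ± 1.46 (F KSR4), 2.14 ± 0.90 (M KSR3) and 0.48 ± 1.14 (TX 2i ESCs), of which only the last step was wider than the larger SD of its neighbours.

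Loxl3, needed for palate and spine formation in the mouse, held 2384, 2992 and 3252 reads in MEFs (7.28 ± 0.12) and was close to the detection limit elsewhere. Pluripotent libraries held 1 to 17 Loxl3 reads, apart from 54 reads in M KSR5 replicate 3. The gene passed the filter on low values (a level above 0 in at least 3 of the 18 libraries) through the MEF libraries, since M KSR5 replicate 3 alone was above 0 among the others. Its highest pluripotent mean was that of M KSR5 (-0.43 ± 2.12, or -1.47 ± 1.59 without replicate 3, n = 2), ahead of M KSR3 (-1.11 ± 0.91) and F KSR4 (-1.25 ± 0.29), and the lowest were those of F KSR2 (-2.15 ± 0.79) and TX 2i ESCs (-3.18 ± 1.53). Between M KSR5, M KSR3 and F KSR4 and between F KSR2 and TX 2i ESCs the steps were within the larger SD.

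Loxl4, whose product likewise acts on collagen, departed from the other members. It held 727, 880 and 598 reads in MEFs (5.47, 5.49 and 4.97) and was the lowest of the 5 there per kilobase of exon. TX 2i ESCs followed with 199, 130 and 83 reads (3.48, 2.80 and 2.40), whereas KSR-iPSCs held 3 to 28 reads (-2.59 to 0.77, median -1.03). Here TX 2i ESCs, which had the lowest Lox, Loxl2 and Loxl3 means of all groups, stood between MEFs and the iPSC lines and overlapped neither. The ratio of mean RPM was 5.16 for MEFs to TX 2i ESCs and 57.8 for MEFs to KSR-iPSCs.

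**Figure D1:**
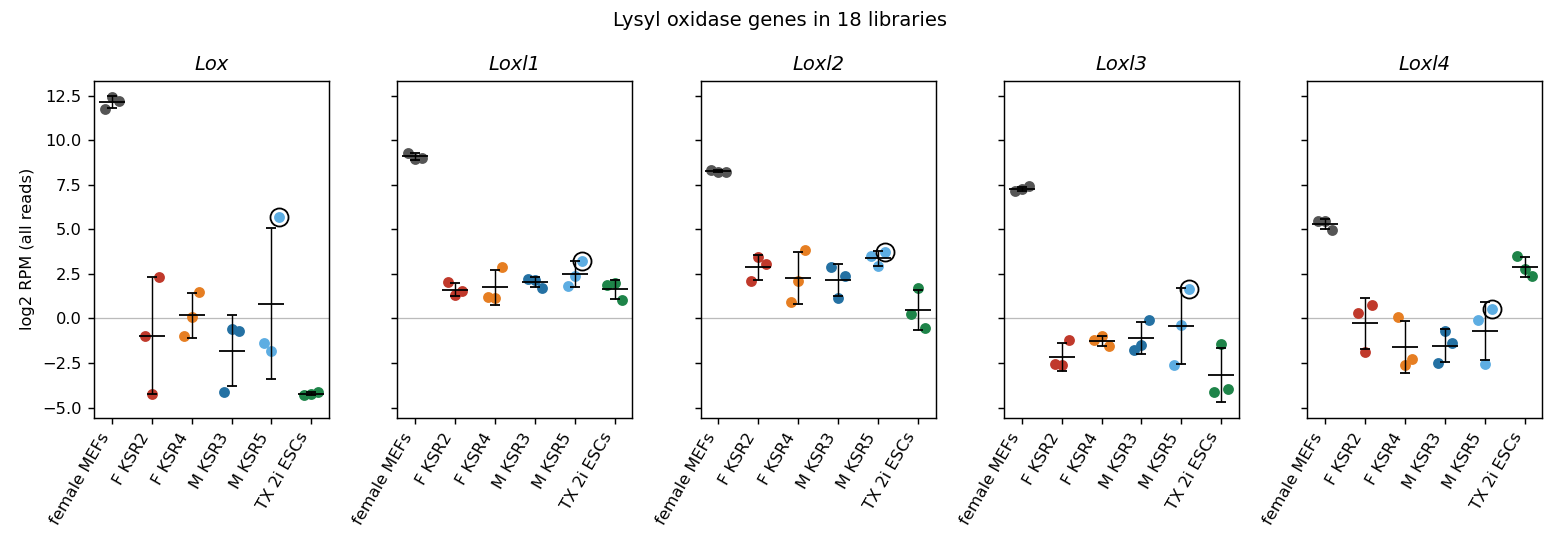
Level (log2 RPM) of each lysyl oxidase gene in the 18 libraries, with 1 panel a gene; points are libraries by group, bars are the mean ± SD (n = 3) and the circled point is M KSR5 replicate 3. MEFs lie on top in every panel, and Loxl4 alone is higher in TX 2i ESCs (2.40 to 3.48) than in all KSR-iPSC libraries (at most 0.77).

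The pluripotent groups thus differed in the members that made up most of the family. Per kilobase of merged exon (lengths from the GENCODE annotation of GRCm38), Lox made up 71.2%, 82.1% and 79.4% of the summed RPKM of the family in the MEF libraries, a mean of 77.6% ± 5.68 (SD, n = 3). Loxl1 followed with 14.1%, Loxl2 with 4.77%, Loxl3 with 2.80% and Loxl4 with 0.792%, an order that held in all 3 libraries. In TX 2i ESCs the order was led by Loxl4 in each library, with 66.2%, 46.4% and 62.2% of the family (mean 58.3% ± 10.5), and Loxl1 came second (30.8% ± 2.85). Lox was the last of the 5 in each TX 2i ESC library. In the 12 KSR-iPSC libraries Loxl1 (mean 39.4%) and Loxl2 (mean 39.9%) made up most of the family, and Loxl4 averaged 5.47%. Lox ranged there from 0.392% to 63.1%, the highest being M KSR5 replicate 3, the only pluripotent library in which Lox ranked first. The whole family was small in pluripotent cells: its summed RPKM was 0.122% to 0.452% of the MEF mean in the other 11 KSR-iPSC libraries, 1.40% in M KSR5 replicate 3 and 0.164% to 0.325% in TX 2i ESCs. The TX 2i ESC level of Loxl4 that led the family was only 1.25 to 2.65 RPKM, against 732 to 1152 RPKM for Lox in MEFs.

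**Figure D2:**
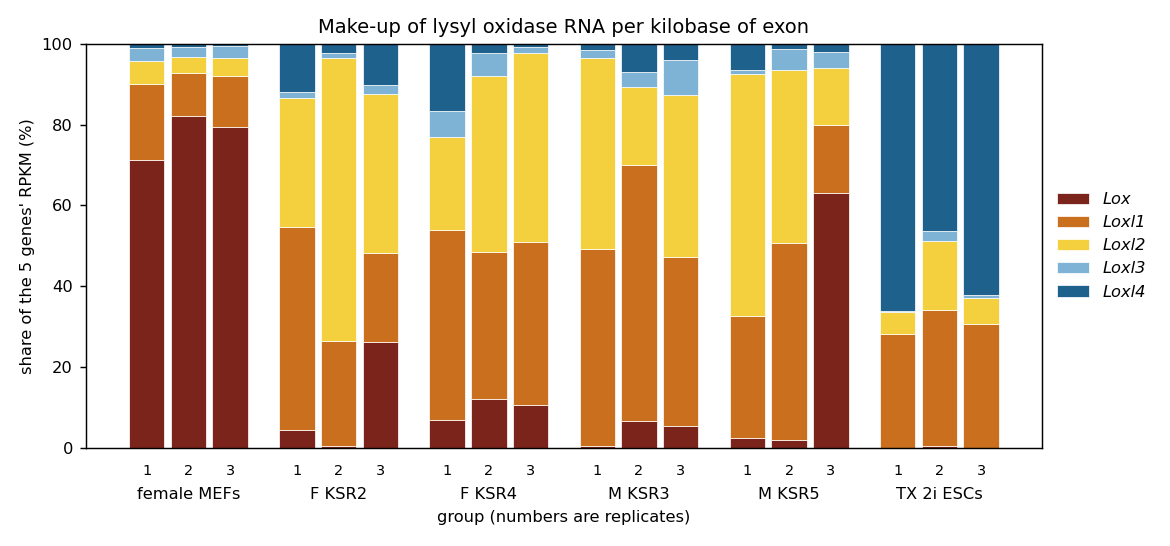
Share of each gene in the summed RPKM of the 5 lysyl oxidases (percent, vertical axis) in the 18 libraries, 1 bar a library, grouped by cell group. Lox fills 71.2% to 82.1% of the MEF bars, Loxl1 and Loxl2 most of the KSR-iPSC bars except M KSR5 replicate 3, and Loxl4 46.4% to 66.2% of the TX 2i ESC bars.

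KSR-iPSCs and TX 2i ESCs were then compared by limma on the log2 levels, with the spread shared over all 18 libraries and adjustment over 14632 genes. At an adjusted p under 0.05, 23.0% of genes differed (1615 higher and 1757 lower in KSR-iPSCs), as did 3 of the 5 members, Lox and Loxl2 being higher and Loxl4 lower. Loxl4 was lower in KSR-iPSCs by limma, with a log2 difference of -3.92 (95% interval -5.34 to -2.51, adjusted p = 0.000477). It was also the only member whose groups did not overlap, all 12 KSR-iPSC libraries lying below all 3 TX 2i ESC libraries, as for 6.21% of genes tested. A full separation in the other direction, seen for 3.94% of genes, was found for none of the members. Summed over libraries, Loxl4 held 147 reads in KSR-iPSCs and 412 in TX 2i ESCs, a ratio, scaled to depth, of 0.0899 (0.0740 to 0.109, counting error only).

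Loxl2 was higher in KSR-iPSCs by 2.18 (1.10 to 3.26, limma adjusted p = 0.00511) and Lox by 3.78 (1.03 to 6.54, limma adjusted p = 0.0454). The Loxl2 call was lost without TX 2i ESC replicate 3, with a difference of 1.68 (limma adjusted p = 0.0621). The Lox call rested on fewer reads. All Lox reads in TX 2i ESCs amounted to 1, so that the fitted difference depends on the value given to libraries with no reads, and F KSR2 replicate 2 and M KSR3 replicate 1 also held only 1. It was lost without any single TX 2i ESC replicate, F KSR2 replicate 1 or 3, F KSR4 replicate 3, or M KSR3 replicate 2 or 3, where differences were 3.37 to 3.83 and limma adjusted p-values 0.0533 to 0.132. Without M KSR5 replicate 3 the difference was 3.18 (limma adjusted p = 0.0263). The ratio of summed reads, scaled to depth, was 276 (49.5 to 10930) with that library and 54.7 (9.71 to 2172) without it.

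Loxl3, which met the filter on low values through the MEF libraries, was too low here for a call to be drawn. It held 135 reads in the 12 KSR-iPSC libraries and 1, 7 and 1 in TX 2i ESCs, so that the size of its difference, 1.95 (0.49 to 3.40), is set in part by libraries with 1 read. It did not pass by limma (adjusted p = 0.0504, and 0.0894 with no filter). Leaving out a single library, M KSR5 replicate 3 (1.69, limma adjusted p = 0.0491), M KSR5 replicate 1 (2.22, 0.0114) or TX 2i ESC replicate 2 (2.83, 0.0159), moved it past the threshold, with the gene still entering through the MEFs. Loxl1 differed by 0.34 and did not pass (limma adjusted p = 0.543), its interval running from -0.41 to 1.08.

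Other marker lists moved with this comparison. Of the 9 extraembryonic endoderm markers tested, 7 were higher in KSR-iPSCs (median difference 2.66) and none lower. Their sum was 443 to 512 RPM in M KSR3, which stood apart, 54.0 to 227 RPM in the other 9 KSR-iPSC libraries and 82.0 to 96.1 RPM in TX 2i ESCs, within the range of F KSR4 (54.0 to 107 RPM). The visceral endoderm receptor genes Amn and Cubn held 25 to 246 and 47 to 1284 reads in KSR-iPSC libraries against 5 to 56 and 2 to 11 in TX 2i ESCs, and of the 10 markers listed only Afp had no reads in any KSR-iPSC library. Of the 15 fibroblast markers, Acta2, Pdgfra, Dcn, Twist2 and Mmp2 passed as higher in KSR-iPSCs, Thy1 as lower (81 to 184 against 305 to 542 reads) and 9 did not pass. Twist2 held 0 to 5 reads in KSR-iPSC libraries and 0 to 1 in TX 2i ESCs, and met the filter on low values through the MEFs. Dcn held 0 to 28 reads against 0, so its difference depends on the value given to libraries with no reads. No call is drawn for Twist2 and Dcn. Lum, Fap and Islr held at most 5, 1 and 11 reads in pluripotent libraries. Prrx1, S100a4 and Ogn reached 30, 93 and 22 reads in M KSR5 and at most 7, 1 and 2 in the other pluripotent groups. These genes, all among the 9 that did not pass, and Dcn also entered through the MEFs. Little can therefore be read from that count. In TX 2i ESCs Dcn, Lum, Fap, Prrx1, S100a4 and Ogn had no reads in any library, whereas Thy1, Mmp2, Pdgfrb, Cd248, Prrx2 and Pdgfra had reads in each. Of 10 pluripotency markers 1 was higher and 4 lower, of 5 mesoderm markers none passed, and of 5 trophoblast and 5 neural markers 1 and 2 were higher and as many lower. The part of these cells in the lysyl oxidase differences was not tested, and the effects of medium, feeder plating, cell origin and cell line cannot be told apart.

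**Figure D3:**
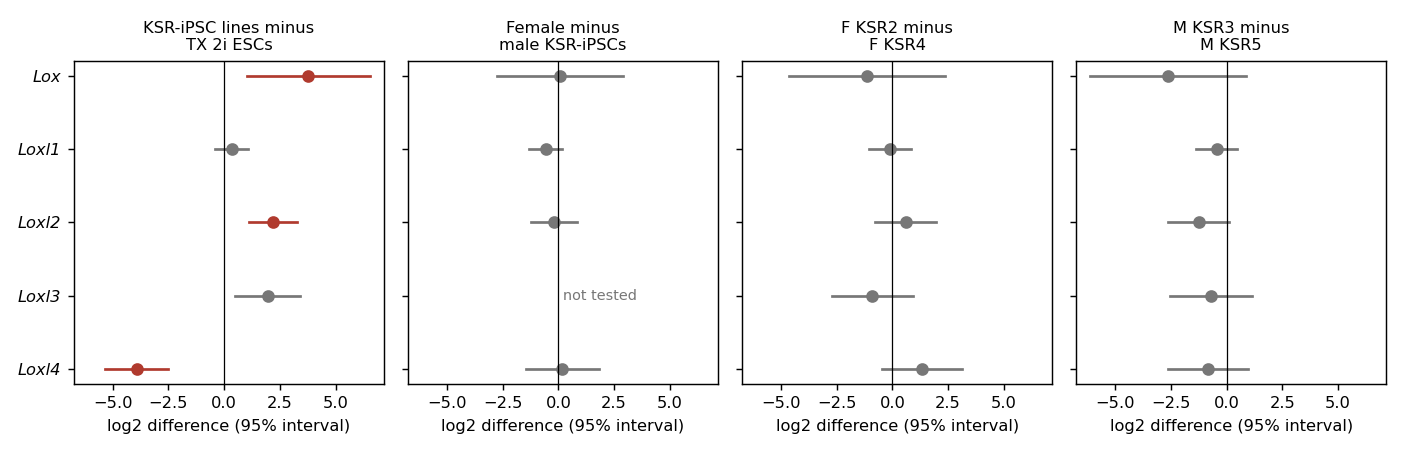
Log2 difference of each lysyl oxidase gene with its 95% interval from limma, in 4 comparisons among pluripotent groups; red marks an adjusted p under 0.05. Red points appear in the comparison of KSR-iPSC lines with TX 2i ESCs (Lox 3.78, Loxl2 2.18, Loxl4 -3.92), and all other intervals except that of Loxl3 in the same panel cross 0.

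Loxl4 was the member that set TX 2i ESCs apart, and the 250 bases before its start site (RefSeq, GRCm38.p6, chr19:42612807-42613056, minus strand, written 5′ to 3′ along the gene) are shown for that reason, with the GC box hexamer GGGCGG in capitals.
Loxl4 promoter: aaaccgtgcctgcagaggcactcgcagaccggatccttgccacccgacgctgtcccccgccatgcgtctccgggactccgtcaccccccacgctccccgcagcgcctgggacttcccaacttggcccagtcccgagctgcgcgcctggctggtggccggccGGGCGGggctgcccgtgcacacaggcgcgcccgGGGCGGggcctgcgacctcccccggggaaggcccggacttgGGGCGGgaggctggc
The hexamer, searched on both strands, occurred 3 times without overlap, starting 89, 56 and 15 bases before the start site, and 33.0% of 32544 promoters of the same length held at least 1. The window held 27 CpG dinucleotides against a median of 6 over these promoters, and 8.64% of promoters held as many or more. No measurement of binding or methylation at this window was used here.

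No member passed the test between female and male KSR-iPSCs. Over 13609 genes limma called 390 (2.87%) between the 6 female and 6 male libraries, and 0 of the 4 members tested, none of which had an unadjusted p under 0.05. Loxl1 came nearest, with a female minus male difference of -0.57 (-1.32 to 0.18, limma adjusted p = 0.409). Its 6 female libraries lay between 1.15 and 2.88 and its 6 male libraries between 1.71 and 3.25. For Lox the difference was 0.10 with an interval from -2.73 to 2.92, and for Loxl4 0.18 (-1.45 to 1.81), intervals that include severalfold differences either way. The Loxl2 difference was -0.18 (-1.22 to 0.85). Without M KSR5 replicate 3 the Lox difference was 1.33 (limma adjusted p = 0.502). Loxl3 was not tested here, since only 1 of the 12 libraries was above 0.

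Lines of 1 sex were also compared with each other. Limma called 1.14% of genes between F KSR2 and F KSR4 and 4.48% between M KSR3 and M KSR5, and 0 of the 5 members in both, with no unadjusted p under 0.05. Loxl3 entered these fits through the MEF libraries. Only M KSR5 replicate 3 was above 0 among the pluripotent libraries, so nothing is drawn from Loxl3 here. The widest female difference was that of Loxl4, which was higher in F KSR2 by 1.33 (-0.46 to 3.12, limma adjusted p = 0.448) on 22, 5 and 28 reads against 19, 3 and 3. Among male lines the Loxl2 difference of M KSR3 minus M KSR5 was -1.25 (-2.61 to 0.12, limma adjusted p = 0.330), on 128, 43 and 93 reads against 204, 135 and 229. The male Lox difference of -2.63 (limma adjusted p = 0.451) was -0.20 without M KSR5 replicate 3.

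In M KSR5 replicate 3, the library in which Lox stood out, several marker lists were higher than in M KSR5 replicates 1 and 2. Relative to the MEF mean, its RPM was 1.13% for Lox, 1.71% for Loxl1, 4.27% for Loxl2, 2.00% for Loxl3 and 3.60% for Loxl4. Its 15 fibroblast markers summed to 1.60% of the MEF mean, and 1 of them had no reads. Their sum was 118 RPM against 34.0 and 32.9 RPM in replicates 1 and 2, that of extraembryonic endoderm markers 227 against 81.8 and 109 RPM, that of mesoderm markers 36.9 against 16.3 and 18.8 RPM, and that of trophoblast markers 29.7 against 13.98 and 13.34 RPM, whereas neural markers (113 RPM) lay between theirs (87.6 and 129 RPM). In the other 11 KSR-iPSC libraries Lox was at 0.00117% to 0.109% of MEFs, the fibroblast sum at 0.340% to 1.36%, and 3 to 6 markers had no reads. Lox thus stood much closer to the fibroblast sum in this library than in any other. F KSR4 replicate 3, for example, combined a fibroblast sum of 1.36% with Lox at 0.0618%, and F KSR2 replicate 3 a sum of 0.974% with Lox at 0.109%. The fibroblast sum is weighted to few genes. Acta2 had the highest mean level of the 15 markers in MEFs (12.29), and Pdgfra the highest in M KSR3 (4.96). Taken gene by gene, the median marker was at 1.14% of its MEF mean in M KSR5 replicate 3. It was at 0.0566% to 0.530% in the other 11 KSR-iPSC libraries. Over the 12 KSR-iPSC libraries the levels of Lox and of the fibroblast sum had a Pearson r of 0.70 and a Spearman rho of 0.65, and 0.56 and 0.55 over the 11 others. These values describe a sum weighted to few genes, in libraries sharing lines, medium and depth. The Pearson r was 0.60 for Loxl3, 0.49 for Loxl1, 0.11 for Loxl4 and 0.10 for Loxl2 over the 12 libraries, and 0.40, 0.27, -0.10 and -0.09 without M KSR5 replicate 3. The pluripotency marker sum of M KSR5 replicate 3, 6454 RPM, was the highest of the KSR-iPSC libraries. The part of fibroblasts, feeder cells or other cell types in these values was not tested.

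**Figure D4:**
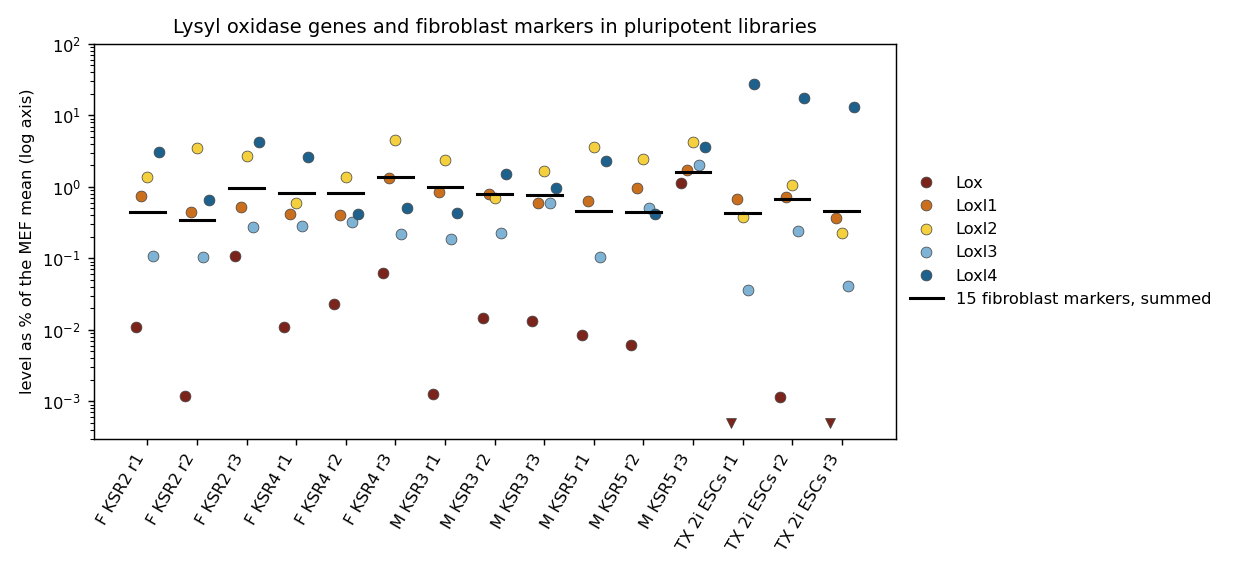
Level of each lysyl oxidase and of the summed 15 fibroblast markers as a percentage of the MEF mean RPM (log axis) in the 15 pluripotent libraries; downward triangles mark Lox in TX 2i ESC replicates 1 and 3, which had no reads. M KSR5 replicate 3 has Lox at 1.13% and the fibroblast sum at 1.60%, whereas Lox is at most 0.109% in the other KSR-iPSC libraries.

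Reads that carry a BL6 or CAST polymorphism gave the maternal (BL6) share of each member. Such reads made up 17.7% to 19.9% of all reads on genes, and the shares below were compared with that of the whole chromosome in the same libraries. Every group had a BL6 mother and a CAST father, so that parent of origin and strain cannot be told apart in these shares. In MEFs all 5 members were expressed from both alleles, with unequal shares. Loxl2 was 57.6% ± 1.14 maternal (SD, n = 3) against 51.0% for chromosome 14, and Lox 55.7% ± 1.03 against 52.8% for chromosome 18, with 95% Wilson intervals above the chromosome in all 3 libraries. Loxl1 leaned the other way, at 44.0% ± 0.51 against 51.4% for chromosome 9, with intervals below the chromosome in all 3. Loxl4 was at 43.8% ± 2.36 against 50.8% for chromosome 19, below it in 2 of 3 libraries, and Loxl3 at 54.1% ± 0.64 did not leave the 54.0% of chromosome 6. These intervals cover counting error only.

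In pluripotent cells the allelic reads were few. Of 16 comparisons with at least 5 allelic reads a library, none passed (exact two-sided permutation tests, all adjusted p = 1), and 3 libraries against 3 cannot go below p = 0.1. That smallest value was reached by Loxl2 in M KSR3, with 67.4%, 66.7% and 92.0% maternal reads against 56.9% to 58.9% in MEFs. The Loxl2 share was 67.9% ± 15.0 for F KSR2 and 58.8% ± 21.1 for F KSR4, and was 35.4%, 69.8% and 43.4% in the M KSR5 libraries, and its 6 female and 6 male iPSC libraries averaged 63.3% and 62.4% (permutation p = 0.935). Loxl4 in TX 2i ESCs was at 36.5%, 48.0% and 74.1%, on both sides of its MEF share. In M KSR5 replicate 3, 196 of 383 allelic Lox reads were maternal, or 51.2% (46.2 to 56.1). Chromosome 6, which carries Loxl3, was 93.2% to 98.6% maternal in the F KSR2 libraries and 48.6% to 54.3% in the other groups. Loxl3 itself had 7 allelic reads over the 3 F KSR2 libraries, 5 of them maternal (71.4%, Wilson interval 35.9 to 91.8). This interval ended below the share of the chromosome in each library, a difference that rests on 2 paternal reads, both in replicate 3.

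Other genes of the cross-linking pathway, with copper supply and regulators, are called pathway genes here and were tested in MEFs against the 5 pluripotent groups. These genes did not enter the choice of the family. Their lists were, however, chosen with earlier results of these data known, so that the counts beside all genes are not an independent test. Over all genes tested 32.5% were lower and 42.1% higher in pluripotent cells, with a median log2 difference of 0.21. Of the 92 pathway genes tested, of 96 listed, 73 were lower and 9 higher by limma, with a median of -3.74. A gene almost silent in pluripotent cells can meet the filter on low values through the MEF libraries alone, which fixes its direction in advance. Postn, for example, had pluripotent group means of -4.22 to -0.68. This limit holds for the counts of each list below.

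All 15 fibrillar and basement membrane collagen chains tested, of 17 listed, were lower in pluripotent cells, with a median log2 difference of -6.04. The type III collagen chain Col3a1 went from 11.45 ± 0.46 in MEFs to a mean of -0.67, a difference of -12.12 (limma adjusted p = 1.7e-08). Col1a2, a chain of type I collagen, dropped by 10.57. Col5a2, a chain of the fibril-regulating type V collagen, dropped by 10.26. Among 18 elastic fibre genes 15 were lower and 2 higher (median -6.59). Fbln5, which brings elastin and lysyl oxidases together, dropped by 10.78, and the difference was -8.24 for the microfibril gene Fbn1 and -8.23 for the fibulin gene Fbln2. The exceptions that rose were Emilin3 (4.25) and Ltbp4 (1.65), a latent TGF-beta binding protein that takes part in elastin assembly. Fbln1 was at 5.77 in MEFs and 5.55 in pluripotent cells (limma adjusted p = 0.48).

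Enzymes that prepare collagen had a smaller median difference. Of 17 genes for hydroxylation, glycosylation and folding 16 were lower and 1 higher, with a median of -2.83. The differences were -6.34 for P4ha3, a prolyl hydroxylase subunit, -5.58 for the collagen chaperone Fkbp10 and -4.86 for P3h3, of the prolyl 3-hydroxylase family, whereas the galactosyltransferase Colgalt2 rose by 3.36 from a level of 0 to 3 reads a library in MEFs. Of 11 genes for propeptide removal and activation, of 12 listed, 10 were lower and 1 higher (median -3.53). The matricellular genes Postn and Thbs1, both known partners in Lox activation, had differences of -12.62 and -11.47, and the protease gene Tll1 dropped by 7.60. Bmp1, the principal protease of the Lox propeptide, was at 7.70 ± 0.07 in MEFs and 0.61 to 3.41 in pluripotent libraries, a difference of -5.84. The exception was Pcolce2, an enhancer of procollagen processing, which rose by 0.76 and was higher in TX 2i ESCs (6.33 ± 0.19) than in KSR-iPSCs (4.27 ± 0.39, limma adjusted p = 1.9e-06), the same order as Loxl4.

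Copper supply genes did not fall as a group. Of its 8 genes 1 was lower, 3 were higher and 4 did not pass, with a median of 0.22. The copper importer Slc31a1 was at 6.06 in MEFs and 5.79 in pluripotent cells, the chaperone Atox1 at 5.27 and 5.69, the exporter Atp7a, which loads lysyl oxidases with copper in the secretory pathway, at 3.69 and 3.41, and the superoxide dismutase chaperone Ccs at 4.84 and 4.84. The transporter gene Slc31a2 dropped by 0.74, and the second copper ATPase Atp7b rose by 3.83. The metallothioneins Mt1 and Mt2, which bind zinc and copper, rose by 2.03 and 2.68, although their MEF libraries were widely spread (5.95 ± 1.90 and 5.90 ± 2.16). Of the other copper amine oxidases, Aoc2 was at 1.88 in MEFs and 1.49 in pluripotent cells, Aoc3 was at 1.98 and 0.09, neither past the threshold, and Aoc1 was too low to test.

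Regulators gave mixed counts. Of 13 TGF-beta and hypoxia genes, upstream of lysyl oxidase transcription in fibroblasts, 9 were lower, 1 higher and 3 did not pass (median -1.07). The differences were -10.64 and -7.13 for the ligands Tgfb3 and Tgfb2 and -6.61 for the receptor Tgfbr2, whereas the hypoxia-inducible factor Epas1 rose by 3.20. Of 8 Snail and epithelial-mesenchymal transition genes 7 were lower and 1 higher (median -4.25). Among transcription factors the differences were -6.64 for Snai2, -5.92 for Zeb2, -4.10 for Snai1, -4.02 for Twist1 and -1.75 for Zeb1. The adhesion gene Cdh2 and the intermediate filament gene Vim were lower too (-4.57 and -4.40). The exception in this list was E-cadherin (Cdh1), which rose by 9.28.

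**Figure D5:**
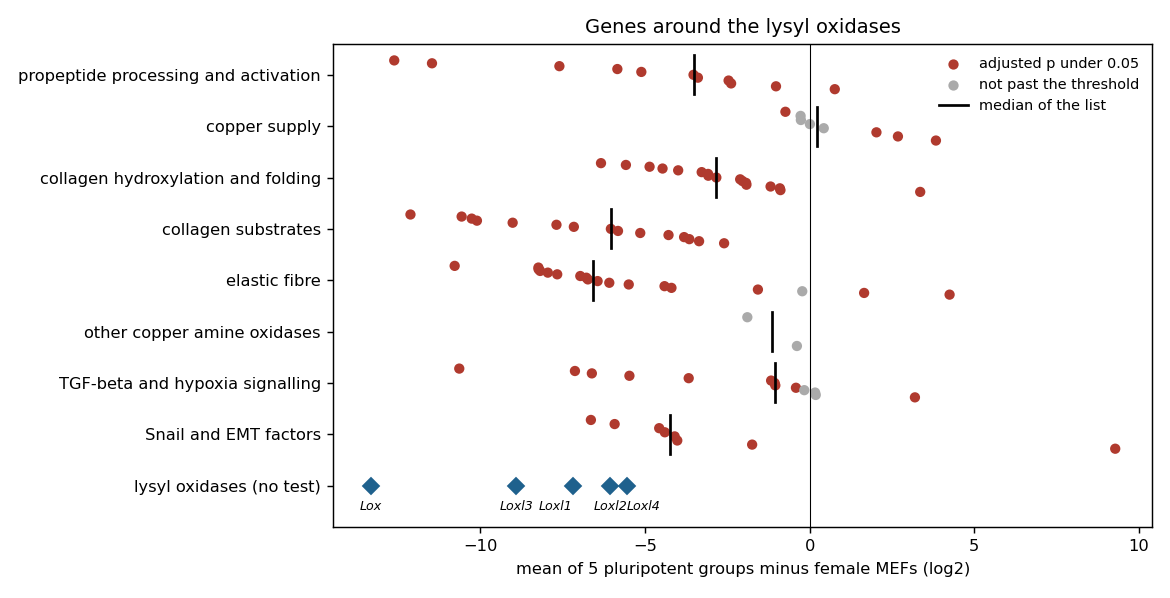
Log2 difference of the mean of 5 pluripotent groups minus female MEFs for the genes of 8 lists; each point is a gene, red where the adjusted p was under 0.05 and grey where not, the black bar is the median of the list and blue diamonds are the 5 lysyl oxidases, which were not tested. Collagen substrates (median -6.04) and elastic fibre genes (-6.59) lie far to the left, copper supply (0.22) around 0.

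The same lists were counted among the pluripotent groups. In the comparison with TX 2i ESCs they can include genes that met the filter on low values through the MEF libraries alone. In KSR-iPSCs against TX 2i ESCs 20 of the 92 genes were higher, 12 lower and 60 did not pass, so that 34.8% were called beside 23.0% of all genes tested, with a median of -0.05 against -0.0045. Col3a1 passed as higher in KSR-iPSCs (limma adjusted p = 0.0067). Much as Lox, it had almost no reads in TX 2i ESCs, with 0 in each library. Its difference therefore depends on the value given to libraries with no reads, and no call is drawn for Col3a1. In female against male KSR-iPSCs 3 of 85 pathway genes were lower and none higher (3.53%, near the 2.87% of all genes tested). None of the 8 copper supply genes passed in either comparison.

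The genes whose 6 group means ran closest to each member were found as the smallest root mean square difference of centred log2 profiles. Closest to Lox were Col3a1 (0.74), Col12a1 (0.83) and Postn (1.02), which encode collagen chains and periostin. Closest to Loxl1 were Bmp5 (0.16), Avpr1a (0.17) and Galntl4 (0.18), of which Bmp5 and Avpr1a were near 0 reads in pluripotent cells, so that they share with Loxl1 a flat profile and not a level. Loxl2 ran with Ecm1 (0.32), S100a6 (0.35) and Stard13 (0.35), and the genes close to Loxl3 included Ccl7 (0.44) and Cd44 (0.45). Loxl4 ran with the dipeptidase gene Dpep1 (0.27) and the homeobox genes Hoxa13 (0.59) and Hoxa10 (0.62). By group mean these likewise stood higher in TX 2i ESCs than in any KSR-iPSC line. Their KSR-iPSC group means ran from -4.24 to -3.08 for Dpep1, -3.65 to -2.37 for Hoxa13 and -3.18 to -0.84 for Hoxa10. Dpep1 was at only -0.48 in TX 2i ESCs. The likeness to Loxl4 thus rests in part on values near the detection limit. Within the family Loxl1 and Loxl2 were most alike (0.87) and Lox and Loxl4 least (4.14).

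The members lie on 5 chromosomes. In GRCm38, Lox (ENSMUSG00000024529) spans chr18:52516069-52529867 on the minus strand, Loxl1 (ENSMUSG00000032334) chr9:58287723-58313212 on the minus strand, Loxl2 (ENSMUSG00000034205) chr14:69609171-69695833 on the plus strand, Loxl3 (ENSMUSG00000000693) chr6:83034173-83052562 on the plus strand and Loxl4 (ENSMUSG00000025185) chr19:42593982-42612813 on the minus strand. Among the 10 genes beside them, 6 had a MEF mean above every pluripotent group mean, by 3.21 for Dok1 and by 0.09 to 0.62 for the others, against 2.42 to 11.31 for the members. Srfbp1, next to Lox, had group means of 5.39 to 5.62 in pluripotent cells and 4.39 in MEFs, the opposite order to Lox, and Zfp474 on its other side held at most 4 reads, all of them in MEFs. Beside Loxl1, Stoml1 was at 4.14 in MEFs and 3.86 to 4.90 in pluripotent groups, and Tbc1d21 held at most 10 reads. AC214054.2, before Loxl2, was at -0.66 in MEFs and -1.98 to -0.75 in pluripotent groups, on at most 18 reads a library. R3hcc1, on the other side of Loxl2, was at 5.19 in MEFs and 3.89 to 4.90 in pluripotent groups. Dok1, next to Loxl3, was the neighbour with the widest gap in the direction of the family, at 5.89 in MEFs and 1.54 to 2.68 in pluripotent groups. Htra2, whose 3′ end overlaps that of Loxl3 on the opposite strand, was at 5.87 in MEFs and 4.47 to 5.40 in pluripotent groups, and reads were counted by strand. Of the neighbours of Loxl4, Pyroxd2 was at 1.23 in MEFs and -0.56 to 0.61 in pluripotent groups, and Gm16541 had no reads.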

How the data were processed

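The authors trimmed reads of strand-specific polyA libraries with Trim Galore 0.6.1, mapped them to GRCm38 with HISAT2 2.1.0 and quantified mRNA by strand in SeqMonk. The deposited values are log2 RPM per gene, for all reads and for BL6- and CAST-specific reads. The read layout differs between the labels and the study's methods. Whole reads were recovered for 99.97 to 100% of values (tolerance 0.05 read), and the table holds a gene without reads at 0.9 read. Groups were compared with limma 3.58.1 (R 4.3.3, intensity trend, Benjamini-Hochberg adjustment) over genes above 0 in at least 3 libraries of the fit. The study's count test for the sexes was not used, because limma was planned for values deposited as log2 RPM. The recovered reads would have allowed such a test. RPKM used merged exon lengths. Maternal shares used libraries with at least 5 allelic reads. Scripts were tested on simulated data. Other settings, each library left out and the replicate number as a block were tried. The numbers were not shown to pair libraries: the correlation of deviations had a median of 0.10 over 45 same-numbered pairs, 22 of them over 0.1, and of -0.05 over 90 pairs with other numbers, 25 of them over 0.1. The genes named from each list had the 3 largest drops and rises past the threshold, and the 3 shortest lists were named in full. Bmp1, Fbln1 and the markers named singly were chosen after their values were seen. The members and lists were chosen with earlier results of these data known, and 9 genes were matched by older symbols. The 3 genes with the profile closest to each member were named, except that a gene close to Loxl3 is not reported here. The 82 methylation samples were not used here.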

Additional observations from a re-analysis of the deposited data

Results flagged for a closer look

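Lox in M KSR5 replicate 3 stood apart from the other male KSR-iPSC libraries. Its level was 5.70 on the log2 RPM scale, whereas the other 5 male libraries lay between -4.10 and -0.59 with a median of -1.37. This library was already set apart when Lox was chosen, so that the gap is a description of the choice and not a test of it. The sum of fibroblast markers was 118 RPM in this library and 25.2 to 101 RPM in the other KSR-iPSC libraries, and extraembryonic endoderm, mesoderm and trophoblast markers were also higher in it than in M KSR5 replicates 1 and 2. The part of other cell types in this value was not tested.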

How the results depend on the processing

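Against TX 2i ESCs, Loxl4 kept its call in every alternative (-4.17 to -2.39), and Loxl1 was never called. Lox was not called with log2(RPM + 1) (1.21, adjusted p = 0.274), no filter on low values (3.78, 0.0789), limma-voom (4.31, 0.203), the 15 pluripotent libraries (3.78, 0.0630) or the female lines (3.83, 0.0746). Loxl3, from which no call is drawn at its few reads, moved past the threshold with a stricter filter (1.95, 0.0482), which it met through the MEFs, median-of-ratios scaling (1.97, 0.0473) and the replicate block (1.95, 0.0371). With 1 library left out, differences were 3.18 to 4.19 for Lox, 1.68 to 2.81 for Loxl2 and 1.46 to 2.83 for Loxl3, the members called were 1 to 4, and the genes called 2125 to 4317 against 3372. The replicate block gave 282 genes for F KSR2 against F KSR4 (167 without it) and changed no other member's call. Between sexes the genes called were 138 with line as a random effect, 1523 with all 18 libraries and 187 to 521 with 1 library left out. With only the 6 libraries compared, the counts were 1 for F KSR2 against F KSR4 and 1851 for M KSR3 against M KSR5, and leaving 1 out gave 66 to 1660 and 145 to 585. With log2(RPM + 1) the MEF differences of Loxl3 and Loxl4 were -6.76 and -4.18, and the sex difference of Lox was -0.21. In none of these comparisons between sexes or lines was a member called. The cause of these shifts was not tested.

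Signs that reversed belonged to differences that were not called. Leaving out 1 library gave -0.63 to 1.33 for Lox, -0.51 to 0.15 for Loxl2 and -0.17 to 0.51 for Loxl4 between sexes, -2.79 to 0.48 for Lox, -0.42 to 0.45 for Loxl1 and -0.10 to 1.36 for Loxl2 between female lines, and -1.76 to 0.36 for Loxl3 between male lines. The maternal share of Loxl1 minus that of MEFs became 14.9 percentage points for F KSR4 and -11.4 for M KSR3 with at least 10 allelic reads, and with summed reads 6.05 for F KSR2 and F KSR4, -5.72 for M KSR3 and 2.48 for TX 2i ESCs. With 1 library left out, the same difference ran from -15.4 to 14.9 for Loxl1 of F KSR4, -11.4 to 16.9 for M KSR3, -8.96 to 11.6 for M KSR5 and -3.96 to 1.50 for TX 2i ESCs, from -10.8 to 9.15 and -7.57 to 16.3 for Loxl2 of F KSR4 and TX 2i ESCs, from -5.73 to 17.6 for Lox of F KSR4, and from -1.53 to 17.3 for Loxl4 of TX 2i ESCs.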
